A study of Mus musculus with 16 samples.

Results

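The 8 genes described here encode the signalling receptor, the co-receptors and the ligands of the glial cell line-derived neurotrophic factor (GDNF) family in the mouse trigeminal ganglion. They are Ret, Gfra1, Gfra2, Gfra3, Gfra4, Gdnf, Nrtn and Artn, taken by symbol as named members of the family. The selection by symbol applied no cut to their measured values, but it was made with earlier results of these data known. Each symbol matched 1 gene, and together they are 8 of the 25719 genes listed in every library. Ganglia were taken from Nogo-A knockout (KO) and wild-type (WT) mice 25 days after birth (P25) and on embryonic day 14 (E14). The 4 groups, P25 KO, P25 WT, E14 KO and E14 WT, held 4 libraries each, every library made from 1 ganglion. The labels name neither the strain nor the knockout allele.

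GDNF family ligands are secreted proteins that bind a co-receptor of the GFRα group, which is anchored to the cell surface by a lipid. The complex then engages RET, a receptor tyrosine kinase, which signals inside the cell. GDNF prefers GFRα1, neurturin (the product of Nrtn) prefers GFRα2, artemin (Artn) prefers GFRα3, and persephin prefers GFRα4. In sensory ganglia the system is known for its part in the survival and maturation of nociceptors that bind the lectin IB4, and of some mechanoreceptors. The ligands are made largely by the tissues that the neurons innervate.

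Library totals ran from 15532373 to 29562379 counts. Rtn4, the gene that encodes Nogo-A among other proteins, ranged from 345 to 384 CPM, the count relative to the scaled library total, in P25 KO and from 406 to 542 CPM in P25 WT. It ranged from 236 to 405 CPM in E14 KO and from 144 to 521 CPM in E14 WT. Its log2 fold change, KO over WT, was -0.41 at P25 (edgeR adjusted p = 1) and -0.27 at E14 (edgeR adjusted p = 0.943), and a gene total need not fall where only some transcripts are removed. E14 WT replicate 2 stood apart: its log2 levels deviated from the mean of the E14 libraries with an SD of 0.83 over genes, against 0.19 to 0.42 for the other 15 libraries from the mean of their stage. Next came P25 WT replicate 4 at 0.42, of whose deviation transcript GC content and length described 50.2%. In their names E14 KO replicates 1 and 3 differ only by R and L, as do E14 WT replicates 2 and 4, so each of these pairs may come from 1 animal, although the description of the series counts 4 animals of each genotype per stage.

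Per kilobase of merged exons, Ret was the most abundant of the 8 mRNAs at P25, at 178 ± 9.85 CPM per kb in KO and 194 ± 24.8 in WT (SD, n = 4 each). The co-receptors followed, and the ligands came last. In P25 KO the order below Ret was Gfra2 at 41.6, Gfra3 and Gfra1 both at 33.3, Gfra4 at 11.6, Nrtn at 1.317, Gdnf at 0.0834 and Artn at 0.0353 CPM per kb. The library ranges of Gfra3 and Gfra1 overlapped in P25 KO, and the other neighbours in that order did not. In P25 WT the order was Gfra2 at 42.0, Gfra1 at 34.2, Gfra3 at 32.2, Gfra4 at 11.9, Nrtn at 0.783, Gdnf at 0.128 and Artn at 0.0815 CPM per kb. There Gfra2 overlapped Gfra1, Gfra1 overlapped Gfra3, and Gdnf overlapped Artn.

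At E14 the top of the order was shared. Gfra3 stood at 125 ± 14.4 CPM per kb in E14 KO and 116 ± 29.3 in E14 WT, beside Ret at 107 ± 19.2 in E14 KO and 119.8 ± 30.1 in E14 WT, and the ranges of both genes overlapped in both groups. Gfra2 followed at 36.2 CPM per kb in E14 KO and 38.6 in E14 WT, overlapping Gfra1 at 30.03 in E14 KO and 30.6 in E14 WT. Gfra4 stood apart below them at 5.08 CPM per kb in E14 KO and 4.95 in E14 WT. The 3 ligands came last, with overlapping ranges between neighbours in both groups, at means of 0.0699 to 0.320 CPM per kb in E14 KO and 0.113 to 0.264 in E14 WT.

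**Figure D1:**
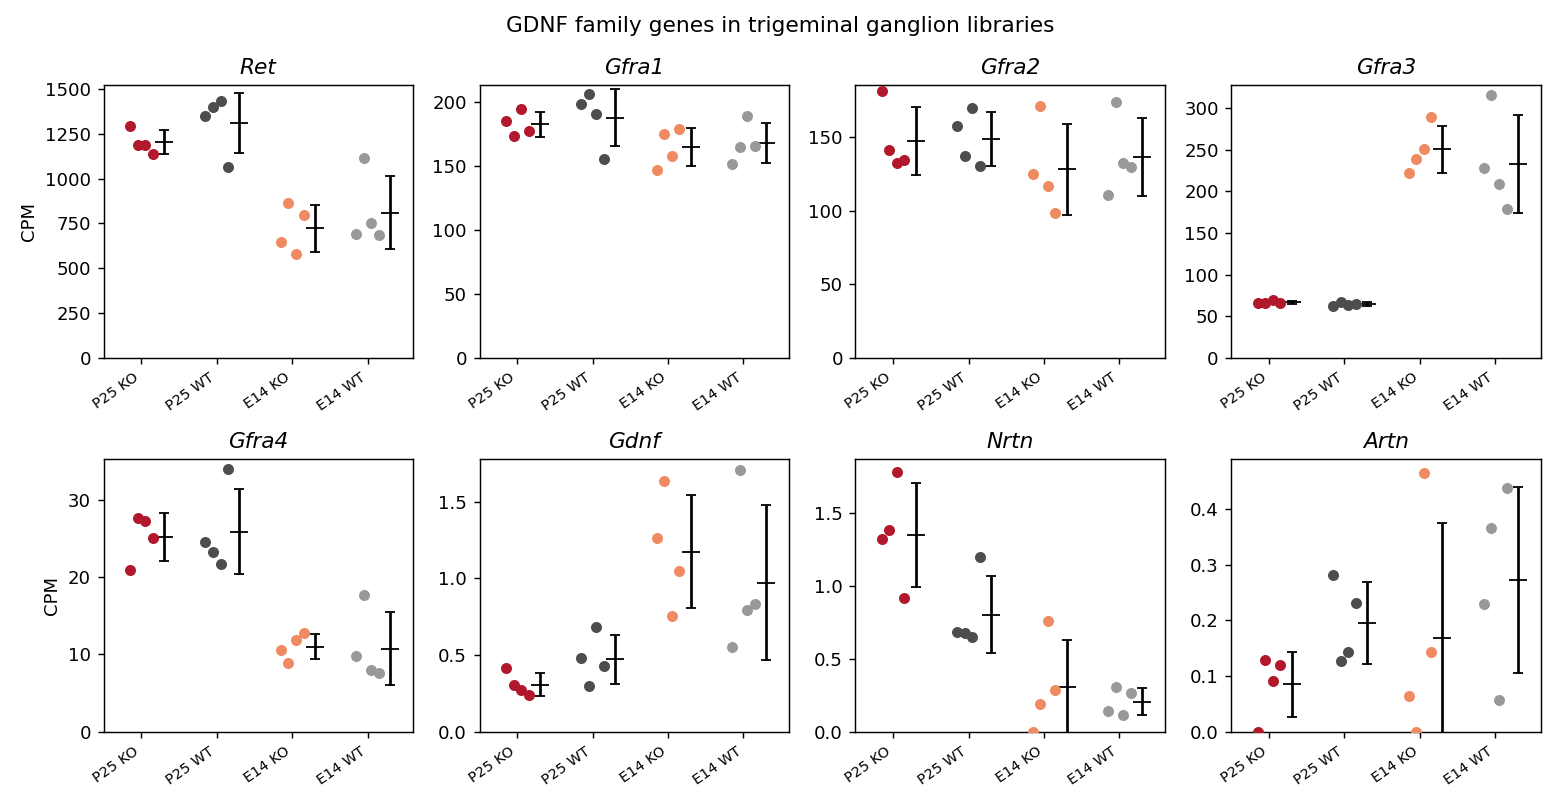
CPM (y axis, linear from 0) of the 8 genes in each library of the 4 groups (x axis); coloured points are the 4 libraries in replicate order, and the black dash with bars is the mean ± SD, with bars that would pass below 0 ending at the axis. Gfra3 lies between 61.9 and 69.0 CPM in the 8 P25 libraries and between 179 and 315 CPM in the 8 E14 libraries, whereas Gfra1 and Gfra2 overlap across all 4 groups.

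Of the 8 genes, 7 passed the low-count filter, and Artn did not. Ret, Gfra4 and Nrtn were higher at P25 than at E14 in both genotypes, and Gfra3 was lower in both. Gdnf was lower at P25 past the threshold in KO. Gfra1 and Gfra2 did not pass the threshold in either genotype. In WT 3 of the 7 tested genes were called higher (edgeR adjusted p under 0.05) where 29.7% of all tested genes were, and 1 was called lower where 29.8% were. In KO 3 of 7 were called higher beside 30.6% of all genes, and 2 lower beside 29.2%. These counts are not far from the shares of all genes and set nothing apart about the family. The P25 and E14 libraries did not overlap in CPM for 5 of the 7 genes in KO, where this held for 59.8% of all genes, and for 3 of the 7 in WT, where it held for 50.2%. The median log2 fold change of the 7 genes was 0.20 in KO and 0.16 in WT, beside 0.011 and 0.00031 over all genes tested. Fewer cells of a type and less RNA per cell cannot be told apart in these whole-ganglion samples.

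Ret (ENSMUSG00000030110, GRCm38 chromosome 6, 118151745 to 118197718) encodes the kinase that the whole family shares. It stood at 1295, 1187, 1185 and 1138 CPM in the P25 KO libraries, in replicate order, and at 1346, 1398, 1431 and 1064 CPM in the P25 WT libraries. At E14 it stood at 647, 862, 581 and 796 CPM in KO and at 691, 1112, 752 and 685 CPM in WT. All P25 KO libraries lay above all E14 KO libraries, while in WT the highest E14 library, replicate 2, lay above the lowest P25 library, replicate 4. The log2 fold change, P25 over E14, was 0.74 in KO (SE 0.18, edgeR adjusted p = 0.00147) and 0.69 in WT (SE 0.18, edgeR adjusted p = 0.00238). In linear terms these are 1.66-fold in KO and 1.62-fold in WT. Without E14 WT replicate 2 the WT value was 0.88 (edgeR adjusted p = 3.71e-05), and without P25 WT replicate 4 it was 0.78 (edgeR adjusted p = 0.00136).

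Gfra3 (ENSMUSG00000024366, GRCm38 chromosome 18, 34689898 to 34720387) encodes the artemin co-receptor and showed the clearest separation between stages. It stood at 65.4, 65.6, 69.0 and 65.7 CPM in P25 KO, and at 61.9, 67.3, 63.8 and 64.6 CPM in P25 WT. At E14 it stood at 222, 238, 251 and 289 CPM in KO and at 227, 315, 209 and 179 CPM in WT. The 8 P25 libraries spanned a narrow range and every one lay below every E14 library. Gfra3 fell 3.77-fold in KO (log2 fold change -1.91, SE 0.17, edgeR adjusted p = 6.11e-09) and 3.61-fold in WT (log2 fold change -1.85, SE 0.16, edgeR adjusted p = 9.42e-09). E14 WT replicate 2 was the highest of all libraries for this gene, and without it the WT log2 fold change was -1.67 (edgeR adjusted p = 6.79e-10).

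Gfra1 (ENSMUSG00000025089, GRCm38 chromosome 19, 58235604 to 58455909), the GDNF co-receptor, overlapped between stages in CPM. In P25 ganglia it stood at 185, 173, 194 and 177 CPM in KO and at 198, 206, 190.0 and 155 CPM in WT. In E14 ganglia the values were 147, 175, 157 and 179 CPM in KO and 151, 165, 189 and 166 CPM in WT. This overlap held in both genotypes. The log2 fold change, P25 over E14, was 0.15 in KO (95% interval -0.14 to 0.44, edgeR adjusted p = 0.372) and 0.16 in WT (-0.13 to 0.45, edgeR adjusted p = 0.330).

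Gfra2 (ENSMUSG00000022103, GRCm38 chromosome 14, 70890120 to 70979838), the neurturin co-receptor, likewise overlapped between stages. It stood at 181, 141, 132 and 135 CPM in P25 KO and at 157, 137, 169.7 and 130.5 CPM in P25 WT, against 125, 171, 117 and 98.6 CPM in E14 KO and 111, 173, 133 and 129.7 CPM in E14 WT. The log2 fold change was 0.20 in KO (95% interval -0.18 to 0.59, edgeR adjusted p = 0.354) and 0.12 in WT (-0.26 to 0.51, edgeR adjusted p = 0.588). The intervals of Gfra1 and Gfra2 leave room for stage differences in either direction. With GC and length offsets Gfra1 passed the threshold in WT, at 0.36 (edgeR adjusted p = 0.0201).

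Gfra4 (ENSMUSG00000027316, GRCm38 chromosome 2, 131039632 to 131043088), the persephin co-receptor, was the least abundant of the 4 co-receptors in every group. It stood at 20.9, 27.6, 27.2 and 25.0 CPM in P25 KO and at 24.5, 23.3, 21.7 and 33.9 CPM in P25 WT. At E14 it stood at 10.6, 8.87, 11.9 and 12.7 CPM in KO and at 9.81, 17.6, 7.90 and 7.54 CPM in WT. The stages did not overlap in either genotype, although E14 WT replicate 2 and P25 WT replicate 4 were each the highest of their group. Gfra4 was 2.29-fold higher at P25 in KO (log2 fold change 1.19, SE 0.24, edgeR adjusted p = 0.000287) and 2.42-fold higher in WT (1.27, SE 0.24, edgeR adjusted p = 0.000154). The WT value was 1.62 without E14 WT replicate 2 and 1.12 without P25 WT replicate 4, and both stayed past the threshold. Pspn, the gene of the ligand persephin, had no count in any of the 16 libraries.

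Nrtn (ENSMUSG00000039481, GRCm38 chromosome 17, 56751325 to 56757530) was the ligand that was higher at P25. It stood at 1.318, 1.38, 1.78 and 0.913 CPM in P25 KO, from 32, 32, 39 and 23 counts. In P25 WT it stood at 0.684, 0.674, 0.646 and 1.20 CPM, from 17, 16, 18 and 31 counts. At E14 it stood at 0, 0.187, 0.757 and 0.286 CPM in KO, from 0, 4, 13 and 6 counts, and at 0.138, 0.305, 0.114 and 0.263 CPM in WT, from 3, 5, 2 and 6 counts. All P25 libraries lay above all E14 libraries of the same genotype. The log2 fold change was 2.11 in KO (SE 0.57, edgeR adjusted p = 0.00348) and 1.94 in WT (SE 0.61, edgeR adjusted p = 0.00973). The size of the KO change turned on E14 KO replicate 3, the highest E14 library: without it the log2 fold change was 3.00 (edgeR adjusted p = 0.000354).

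Gdnf (ENSMUSG00000022144, GRCm38 chromosome 15, 7810846 to 7837575) went the other way from Nrtn. It stood at 0.412, 0.302, 0.274 and 0.238 CPM in P25 KO, 29 counts in all, and at 0.483, 0.295, 0.682 and 0.425 CPM in P25 WT, 49 counts in all. At E14 it stood at 1.26, 1.63, 0.757 and 1.05 CPM in KO, 90 counts in all, and at 0.550, 1.71, 0.796 and 0.833 CPM in WT, 73 counts in all. The stages did not overlap in KO, and they did in WT. Gdnf was 3.80-fold lower at P25 in KO (log2 fold change -1.92, SE 0.45, edgeR adjusted p = 0.00112). In WT the change was -1.01 on the log2 scale (SE 0.43), and its edgeR adjusted p of 0.0513 missed the threshold. The WT value depended on E14 WT replicate 2, without which it was -0.61 (edgeR adjusted p = 0.228). The difference between the 2 stage changes was -0.91 on the log2 scale (SE 0.63, 95% interval -2.22 to 0.39, edgeR interaction adjusted p = 0.993), so KO and WT were not shown to differ.

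Artn (ENSMUSG00000028539, GRCm38 chromosome 4, 117926162 to 117929763), the artemin gene, was at the limit of detection, with 0, 3, 2 and 3 counts in the P25 KO libraries and 7, 3, 4 and 6 in P25 WT. It had 1, 0, 8 and 3 counts in the E14 KO libraries and 5, 6, 1 and 10 in E14 WT. In CPM this ranged from 0 to 0.466 over all 16 libraries, and all groups overlapped. In a fit of 20220 genes without the low-count filter, its log2 fold change, P25 over E14, was -0.88 in KO (SE 0.98, edgeR adjusted p = 0.475) and -0.40 in WT (SE 0.86, edgeR adjusted p = 0.746). A stage difference of Artn was not detectable at this depth.

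**Figure D2:**
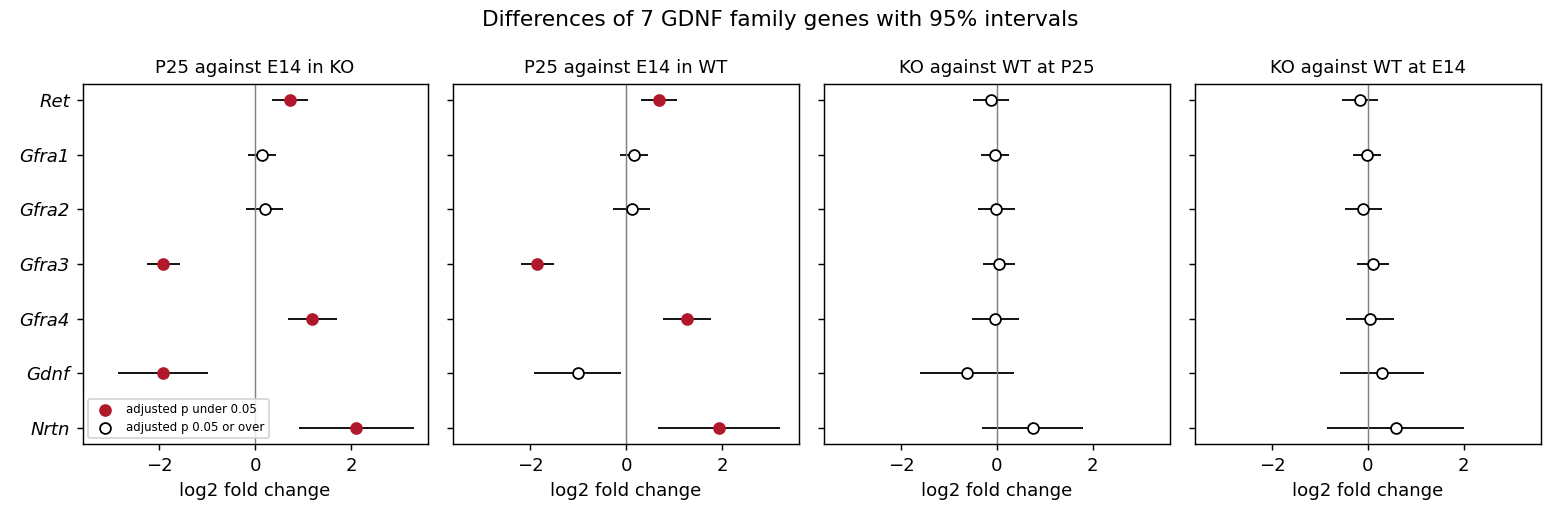
Log2 fold change (x axis) of the 7 tested genes (rows) in 4 panels, P25 over E14 in KO and in WT and KO over WT at P25 and at E14; lines are 95% intervals and filled red points have an edgeR adjusted p under 0.05. The stage panels hold 5 filled points in KO and 4 in WT, with Gfra3 at -1.91 and -1.85, and the genotype panels hold none.

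The promoter windows of 3 genes that moved with stage are printed here so that the 2 directions can be compared: Nrtn and Gfra4 were higher at P25, and Gdnf was lower at P25 in KO. Each holds the 250 bases before a start annotated by RefSeq on GRCm38.p6, written 5′ to 3′ on the strand of the gene. RefSeq windows were matched by symbol for 5 of the 8 genes, Gfra1, Gfra4, Gdnf, Nrtn and Artn, while Ret, Gfra2 and Gfra3 had no entry in the table used. Capitals mark the motifs searched, on both strands. The GC box was searched as GGGCGG and the TATA box of core promoters as TATAAA. For RUNX factors the pattern TGNGGT was searched, where N is any base. This pattern is looser than the motif itself, so a match need not be a RUNX site. The core of homeodomain motifs was searched as TAATTA. No matches overlap.
Nrtn, chr17:56757549-56757798, minus strand: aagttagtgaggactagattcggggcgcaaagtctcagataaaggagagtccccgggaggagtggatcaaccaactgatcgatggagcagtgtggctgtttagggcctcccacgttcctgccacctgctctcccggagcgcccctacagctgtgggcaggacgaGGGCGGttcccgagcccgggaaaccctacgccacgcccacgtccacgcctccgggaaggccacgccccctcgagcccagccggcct
Gfra4, first start, chr2:131043089-131043338, minus strand: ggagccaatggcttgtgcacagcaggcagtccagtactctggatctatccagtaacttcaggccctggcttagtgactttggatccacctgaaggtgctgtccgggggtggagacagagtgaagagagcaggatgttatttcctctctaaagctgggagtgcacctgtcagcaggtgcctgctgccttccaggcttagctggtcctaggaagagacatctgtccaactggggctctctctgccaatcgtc
Gfra4, second start, chr2:131042683-131042932, minus strand: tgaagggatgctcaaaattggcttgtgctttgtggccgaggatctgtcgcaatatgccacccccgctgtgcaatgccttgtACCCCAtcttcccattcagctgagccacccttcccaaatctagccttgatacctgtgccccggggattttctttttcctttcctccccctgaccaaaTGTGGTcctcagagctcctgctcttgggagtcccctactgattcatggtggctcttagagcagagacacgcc
Gdnf, first start, chr15:7809798-7810047, plus strand: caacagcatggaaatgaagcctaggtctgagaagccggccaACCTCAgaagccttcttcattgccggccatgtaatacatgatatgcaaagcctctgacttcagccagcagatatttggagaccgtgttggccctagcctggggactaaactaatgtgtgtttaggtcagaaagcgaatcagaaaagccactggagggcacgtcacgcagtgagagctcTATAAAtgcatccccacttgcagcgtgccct
Gdnf, second start, chr15:7813477-7813726, plus strand: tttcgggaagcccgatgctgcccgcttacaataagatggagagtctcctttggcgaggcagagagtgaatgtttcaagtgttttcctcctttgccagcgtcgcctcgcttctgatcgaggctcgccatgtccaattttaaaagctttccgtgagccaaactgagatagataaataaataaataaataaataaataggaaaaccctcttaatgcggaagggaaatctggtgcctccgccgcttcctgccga

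The Nrtn window holds 1 GC box and no other match, and its GC content is 64.8%, the highest of the 5 windows printed. The first Gfra4 window holds none of the 4 motifs and the second holds 2 matches of the loose RUNX pattern, ACCCCA and TGTGGT. The first Gdnf window holds 1 TATA box and 1 match of the loose RUNX pattern, ACCTCA, and the second none of the 4. Of 32851 mouse windows of the same length, 32.7% hold a GC box, 12.4% a TATA box, 40.1% a match of the loose RUNX pattern and 4.84% a homeodomain core. The letters describe the windows and say nothing of a factor bound there.

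Both the make-up of the co-receptors and their sum differed between stages. Shares depend on each other: as given above, Gfra1 and Gfra2 themselves did not pass the threshold between stages in either genotype. Gfra3 made up 27.8 ± 1.44% of the summed Gfra1 to Gfra4 level per kilobase in P25 KO and 26.8 ± 1.65% in P25 WT, against 63.7 ± 4.22% in E14 KO and 60.7 ± 4.29% in E14 WT (SD, n = 4 each). Gfra2 had the highest mean share at P25, at 34.6% in KO and 34.8% in WT, with 18.5% in E14 KO and 20.3% in E14 WT. Gfra1 made up 27.8% in P25 KO and 28.4% in P25 WT, and 15.3% in E14 KO and 16.5% in E14 WT. The lead of Gfra2 over Gfra1 at P25 depends on the length used: per kilobase of the longest transcript, Gfra2 made up 32.8% in KO and 32.9% in WT and Gfra1 30.4% in KO and 31.0% in WT, with overlapping ranges in both. Gfra4 made up 9.76% in P25 KO and 9.99% in P25 WT, and 2.59% in E14 KO and 2.52% in E14 WT. The summed co-receptor level was 119.8 ± 5.49 CPM per kb in P25 KO and 120.4 ± 5.04 in P25 WT, against 197 ± 14.3 in E14 KO and 191 ± 37.4 in E14 WT. Set over Ret in the same library, it was 0.675 ± 0.0103 in P25 KO and 0.628 ± 0.0631 in P25 WT, against 1.88 ± 0.271 in E14 KO and 1.61 ± 0.101 in E14 WT.

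**Figure D3:**
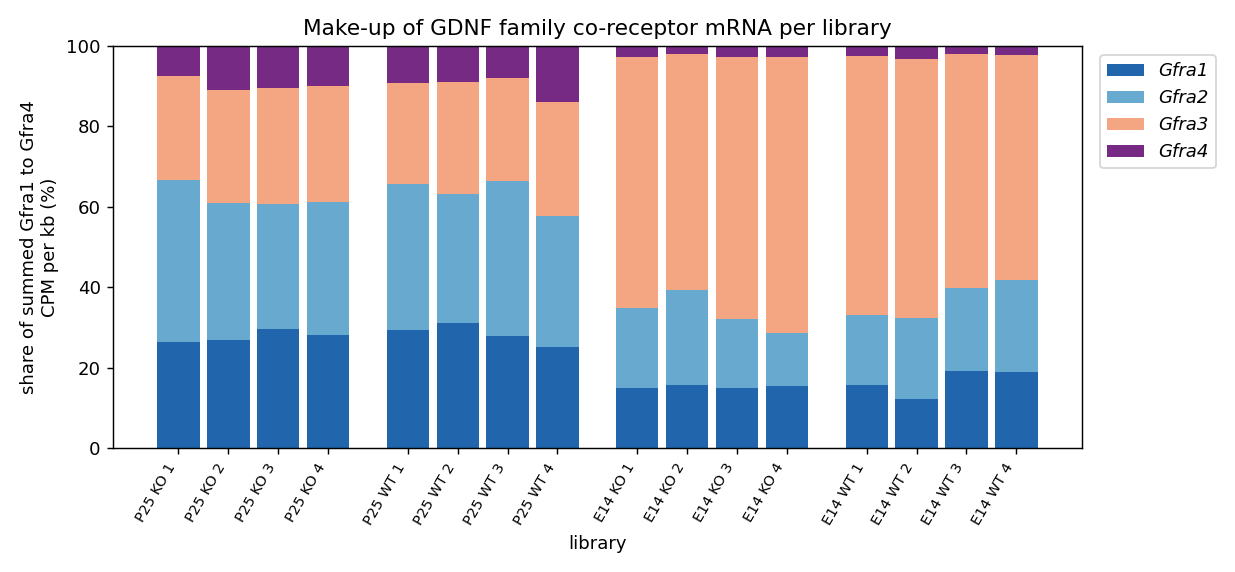
Share of Gfra1, Gfra2, Gfra3 and Gfra4 (coloured segments) in their summed CPM per kb of merged exons (y axis, %) in each of the 16 libraries (x axis). Gfra3 takes 25.2% to 28.8% of the sum in the 8 P25 libraries and 56.0% to 68.6% in the 8 E14 libraries.

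Ratios within a library compared 2 genes without regard to scaling between libraries. Gfra3 over Ret was 6.31-fold lower at P25 in KO (log2 difference -2.66) and 5.80-fold lower in WT (-2.54), with no overlap between stages in either genotype. Relative to Gfra1, Gfra3 was 4.16-fold lower at P25 in KO and 3.94-fold lower in WT, and relative to Gfra2 it was 4.37-fold lower in KO and 3.88-fold lower in WT. Each of these 6 ratios had an exact two-sided permutation p of 0.0286, the smallest that 4 against 4 libraries allow, and an adjusted p of 0.0952 over the 40 ratio tests made. None of the 40 passed 0.05 after adjustment, which stage ratios could not do unless genotype ratios also reached the smallest p, and 12 had an unadjusted p under 0.05 (6 in KO and 6 in WT, all between stages). A ratio shows unequal change of its 2 genes and not which of them changed.

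Neuron markers gave a within-library scale for the receptors. Relative to the geometric mean of 11 sensory neuron markers, Gfra3 was lower at P25 by a log2 difference of -1.85 in KO and -1.87 in WT (exact permutation p = 0.0286 each, adjusted p = 0.0952 each). Ret was higher on the same scale by 0.80 in KO (exact permutation p = 0.0286, adjusted p = 0.0952) and by 0.66 in WT (exact permutation p = 0.114, adjusted p = 0.286). The WT ratios of Ret overlapped between stages. The sizes turned on the markers used. Over Pou4f1, Isl1 and Prph alone the log2 difference was -1.019 in KO and -1.002 in WT for Gfra3, and 1.64 in KO and 1.53 in WT for Ret (exact permutation p = 0.0286 and adjusted p = 0.0672 for each of these 4). Gfra1 and Gfra2 turned on the markers as well. Over the 11 markers Gfra1 differed by 0.20 in KO and 0.11 in WT, and Gfra2 by 0.27 in KO and 0.08 in WT, with overlapping stages (exact permutation p of 0.114 or more). Over the 3 markers Gfra1 differed by 1.038 in KO and 0.98 in WT, and Gfra2 by 1.11 in KO and 0.95 in WT, with no overlap between stages (exact permutation p = 0.0286 and adjusted p = 0.0672 for each). Among the 3 markers, Isl1 and Prph were themselves lower at P25, by log2 fold changes of -1.55 and -0.94 in KO and -1.57 and -0.94 in WT. A marker that falls raises every ratio set over it, so these values do not show a rise of the receptors. The direction of Ret and Gfra3 was the same over either set of markers as over the library total.

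No member of the family was called between KO and WT at either stage. At P25 0 of the 7 tested genes passed, as did 0.0463% of all genes (7 of 15109), and at E14 0 of 7 passed, as did 0.0199% (3 of 15109). Unadjusted p-values under 0.05 numbered 0 of 7 at each stage, beside 282 of all 15109 genes at P25 and 735 at E14. DESeq2 called 0 of 7 at each stage, beside 18 of all genes at P25 and 5 at E14. Such low shares leave few calls to be found among 7 genes. At P25, however, DESeq2 gave no adjusted p for Gdnf (log2 fold change -0.63) or Nrtn (0.75), so it could not call them. All 8 genes overlapped between KO and WT at both stages, where 3.32% of the tested genes at P25 and 1.63% at E14 did not overlap. The median log2 fold change of the 7 genes, KO over WT, was -0.037 at P25 and 0.042 at E14, beside -0.016 and -0.042 over all genes. The stage by genotype interaction called 0 of 7 members and 0% of all genes with edgeR; 0 of the 7 and 647 of all 15109 genes had an unadjusted p under 0.05, and DESeq2 called 0 of the 7 and 8 of all genes.

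The intervals bound how large a genotype difference could be. For Ret the log2 fold change, KO over WT, was -0.12 at P25 (95% interval -0.50 to 0.25) and -0.17 at E14 (-0.54 to 0.20). Gfra1 was the most tightly bounded, at -0.04 (-0.33 to 0.25) at P25 and -0.03 (-0.32 to 0.26) at E14. For Gfra2 the values were -0.014 (-0.40 to 0.37) at P25 and -0.09 (-0.48 to 0.29) at E14. For Gfra3 they were 0.05 (-0.29 to 0.38) at P25 and 0.11 (-0.23 to 0.44) at E14. For Gfra4 they were -0.04 (-0.53 to 0.46) at P25 and 0.04 (-0.47 to 0.55) at E14. The edgeR adjusted p was 1 for all 7 genes at P25 and 0.943 to 0.998 at E14.

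The 2 tested ligands carried wider intervals and rest on few counts. Nrtn was 0.74 (95% interval -0.31 to 1.80) at P25, with 126 counts in the KO libraries and 82 in WT, and 0.58 (-0.84 to 1.99) at E14, with 23 counts in KO and 16 in WT. In P25 ganglia 3 of the 4 KO libraries lay above all 4 WT libraries for Nrtn, and the fourth lay below WT replicate 4. Gdnf was -0.62 (-1.60 to 0.36) at P25, with 29 counts in KO and 49 in WT, and 0.30 (-0.57 to 1.16) at E14, with 90 counts in KO and 73 in WT. The intervals of both ligands include 0 at both stages.

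Around the receptor, genes of each pathway list were called in both directions between stages, beside the 30.6% higher and 29.2% lower of all genes in KO, and the 29.7% higher and 29.8% lower in WT. Of 12 co-receptors and modulators of RET, all tested, 4 were called higher and 2 lower at P25 in KO, and 4 higher and 3 lower in WT, shares near those of all genes, with a median log2 fold change of -0.10 in KO and -0.29 in WT. Sorl1, a sorting receptor that takes up GDNF with GFRα1, was higher at P25, at 301 ± 92.3 CPM in P25 WT against 18.8 ± 3.56 CPM in E14 WT (SD, n = 4 each; log2 fold change 4.00, SE 0.27). Cd2ap, an adaptor that links RET to Cbl-type ubiquitin ligases, and Lrig1, a membrane inhibitor of RET, were higher by 1.65 and 0.64. Ncam1, an adhesion molecule that can serve as a GDNF receptor without RET, was lower, at 129 ± 24.02 CPM in P25 WT against 425 ± 139 CPM in E14 WT (log2 fold change -1.72, SE 0.23). Ptprf, a receptor phosphatase that acts on RET, was lower by a log2 fold change of -1.27, and the ubiquitin ligase gene Cbl by -0.61 (edgeR adjusted p = 0.0485 in WT; -0.34 and 0.269 in KO).

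Of 18 adaptors and effectors that bind or follow RET, all tested, 5 were called higher and 7 lower in KO, and 3 higher and 7 lower in WT. Grb10, an adaptor that inhibits several receptor kinases, stood at 29.7 ± 4.00 CPM in P25 WT and 289 ± 11.0 CPM in E14 WT (log2 fold change -3.28, SE 0.15). Plcg1, the phospholipase that RET recruits, was lower by -2.21, and the docking protein gene Dok5 by -2.01. Dok1 was higher by 1.12, Irs2 by 1.10 and Stat3 by 0.39. The median of the list was -0.04 in KO and -0.25 in WT.

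Genes known from mouse kidney to follow RET signalling did not move together. Of 7 tested of 8 listed, 3 were called higher and 1 lower in KO, and 2 higher and 2 lower in WT. Etv4, an ETS transcription factor, stood at 7.71 ± 1.79 CPM in P25 WT and 69.2 ± 19.6 CPM in E14 WT (log2 fold change -3.16, SE 0.32). Dusp6, a phosphatase of ERK kinases, was lower in WT by -0.79 (edgeR adjusted p = 0.0037) and not past the threshold in KO (-0.25, edgeR adjusted p = 0.333). Cxcr4, a chemokine receptor, was higher by 1.04 in WT.

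Of 10 transcription factors of RET-expressing sensory neurons, 1 was called higher and 5 lower at P25 in KO, and 2 higher and 5 lower in WT. Isl1 stood at 52.2 ± 4.71 CPM in P25 WT and 155 ± 57.8 CPM in E14 WT (log2 fold change -1.57, SE 0.22). Runx1, which in mouse is needed for the non-peptidergic nociceptor programme, was lower by -0.78 and Prdm12 by -0.67. Mafa, a factor of RET-expressing mechanoreceptors, was higher by 0.68, and Maf by 0.58 in WT (edgeR adjusted p = 0.0477; 0.44 and 0.132 in KO).

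Markers of non-peptidergic nociceptors, the neurons in which RET is best known, were mostly higher at P25: of 11, 10 were called higher and 1 lower in each genotype. Of all tested genes, 30.6% were called higher and 29.2% lower in KO, and 29.7% higher and 29.8% lower in WT. Mrgprd, a receptor gene of the polymodal subtype, stood at 58.1 ± 16.4 CPM in P25 WT and had 1 count over the 4 E14 WT libraries. Mrgpra3 and Mrgprb4 had no count in E14 WT and were at least 94.8-fold and 55.3-fold higher in P25 WT, taking 3 counts over the E14 group as the floor. P2rx3, an ATP receptor, was the exception, at 124 ± 22.3 CPM in P25 WT against 514 ± 12.5 CPM in E14 WT (log2 fold change -2.05, SE 0.15). Of 7 peptidergic nociceptor markers, 4 were called higher and 1 lower in each genotype. Calcb, Trpa1 and Calca, which encode a neuropeptide, an irritant-gated channel and a further neuropeptide, were higher by 8.75, 7.06 and 6.05 in WT. Neither nociceptor list, nor any of the pathway lists, held a gene called between KO and WT at P25 or E14. Of all 15109 tested genes only 7 (0.0463%) were called at P25 and 3 (0.0199%) at E14.

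**Figure D4:**
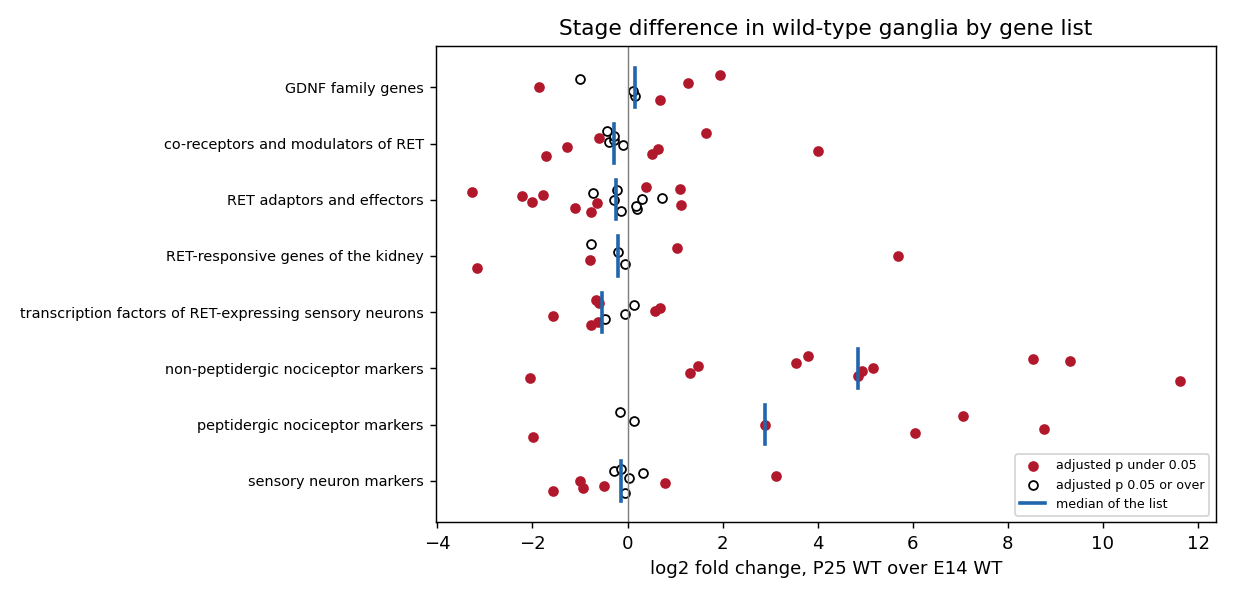
Log2 fold change, P25 WT over E14 WT (x axis), of the tested genes of the GDNF family and of 7 lists (rows); filled red points have an edgeR adjusted p under 0.05 and blue bars are list medians. The non-peptidergic list has a median of 4.86, the same with the 2 genes at 0 in E14 WT set at their bound, and the GDNF family one of 0.16.

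The labelled tissue carried neuron and glia markers at both stages, and their balance changed with stage beside the results above. The 11 sensory neuron markers, all tested, summed to 10777 to 12046 CPM in P25 KO and 9756 to 13691 CPM in P25 WT, against 12666 to 16175 CPM in E14 KO and 11940 to 17080 CPM in E14 WT. Of these, 2 were called higher and 4 lower at P25 in each genotype, among them Snap25 at 3.12 and Prph at -0.94 on the log2 scale in WT. Over all tested genes 30.6% were called higher and 29.2% lower in KO, and 29.7% higher and 29.8% lower in WT. Isl1 and Pou4f1 are on this list and on that of the transcription factors. The 6 myelinating Schwann cell markers, all called higher in both genotypes, summed to 21087 to 43262 CPM in P25 KO and 27464 to 32295 CPM in P25 WT, against 441 to 543 CPM in E14 KO and 408 to 578 CPM in E14 WT. The 8 satellite glia markers (6 called higher, 1 lower in each genotype) summed to 6002 to 7963 CPM in P25 KO and 5158 to 7925 CPM in P25 WT, against 816 to 1048 CPM in E14 KO and 771 to 1045 CPM in E14 WT. The part of this change in cell make-up in the stage differences of the GDNF family was not tested.

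The lists of other cell types are short, and their counts in WT stand beside 29.7% of all tested genes called higher and 29.8% lower. In WT 1 of 7 Schwann cell precursor markers was called higher and 4 lower, and 3 of 6 tested mural and smooth muscle markers higher. Called higher too were 3 of 6 fibroblast markers, 4 of 5 macrophage markers and 1 of 5 endothelial markers, with 4 endothelial markers lower. Markers of tissue outside the ganglion were mostly low. Of 5 central nervous system glia markers 4 were called higher. The sum of the 5 ran from 102 to 216 CPM in P25 KO and from 8.22 to 212 CPM in P25 WT, against 9.43 to 15.1 CPM in E14 KO and 2.38 to 13.9 CPM in E14 WT. Gfap made up most of this sum in P25 WT, at a mean of 104 CPM of 125 CPM, while Mog averaged 4.78 CPM and Olig1 2.21 CPM. Skeletal muscle markers (1 of 4 tested higher, 3 lower) summed to at most 10.3 CPM and pituitary markers (1 tested, not called) to at most 3.38 CPM in any library. Of the autonomic neuron list only Th was tested, at 12.7 CPM in P25 KO and 13.5 CPM in P25 WT, against 419.8 CPM in E14 KO and 452 CPM in E14 WT. Dbh, Phox2a and Hand2 averaged at most 0.370 CPM in every group.

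Genes were also ranked by how closely their log2 CPM, centred on the gene mean, followed each receptor over the 16 libraries, among 13114 genes. Ogdh, Ywhag and Mapk8ip3 lay nearest to Ret, with root mean square differences of 0.09, 0.10 and 0.11 on the log2 scale, beside a spread of 0.43 for Ret itself. Tubb5, Zdhhc22 and Zswim4 lay nearest to Gfra3, at 0.11 to 0.16 beside a spread of 0.95. Creld1, Tmem143 and Pik3ip1 lay nearest to Gfra4 at 0.15 each, beside a spread of 0.70. Fam20b and Pcyox1 were among those nearest to Gfra1, at 0.08 and 0.11 beside 0.14. Ece1, Nuak1 and Tmem200c lay nearest to Gfra2, at 0.13 to 0.15 beside 0.24. The libraries share stage and scaling, so such nearness is a description of these 16 libraries. The ligands, whose means were under 1 CPM, were not ranked.

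Of the 4 other relatives of the family only Gas1 was tested. Gas1, a membrane protein related to the GFRα group, was lower at P25, with a log2 fold change of -0.78 in KO (edgeR adjusted p = 0.0131) and -0.67 in WT (edgeR adjusted p = 0.0293). Gdf15, a distant ligand, averaged at most 0.202 CPM in every group. Gfral, the gene of its receptor, had no count in any library.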

How the data were processed

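Per the labels' protocols, total RNA was extracted and sequenced from stranded mRNA libraries, 1 per ganglion. The authors deposited 1 table per library, with gene-level estimated counts as whole numbers. Tools and build named in the submitters' processing notes, with no role or order, are kallisto 0.46, fastp 0.20.0, DESeq2 1.32.0 and GRCm39. Neither annotation nor strand setting is stated there. Because such counts share out ambiguous reads by estimation, genes with close copies or overlapping neighbours are less certain. Of the 25719 genes, 25614 had a symbol. Library totals ran from 15532373 to 29562379 counts.

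Groups and replicate numbers came from the sample titles. The fit used edgeR 4.0.16 under R 4.3.3, with TMM scaling, filterByExpr on the 4 groups (15109 genes left), 1 mean per group over 16 libraries, the quasi-likelihood F test and Benjamini-Hochberg adjustment over all tested genes at a threshold of 0.05. SEs were derived from the F statistic, and 95% intervals from these and the t distribution. CPM used the scaled totals. Levels per kilobase used merged exons of GENCODE M21 on GRCm38, which is not the build in the notes, so positions are GRCm38 positions. Within-library ratios (0.5 counts added) were compared by exact two-sided permutation tests. P-values here reflect variation from ganglion to ganglion.

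The text names all 8 members; from each list up to 3 called genes each way with the largest change in WT and a mean of at least 1 CPM; and the 3 genes nearest in pattern to each member of at least 1 CPM. A few genes that this rule selects are not reported here. The members and lists were chosen with earlier results of these data known. Alternatives were a replicate block, DESeq2 1.42.0, scaling by RLE or by library totals only, dropping the low-count filter or asking for at least 1 CPM in 4 libraries, fits to the compared libraries only, summing of same-numbered ganglia, GC and length offsets, leaving out each library, other added counts, other neuron markers and longest transcripts. Figures were drawn with matplotlib 3.10.9.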

Additional observations from a re-analysis of the deposited data

Results flagged for a closer look

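Each of the 8 genes was examined in each of the 4 groups for a library far from the other 3, 32 groups in all, of which 3 were flagged; chance flags about 1 in 20 groups. Ret in E14 WT was flagged for replicate 2, at 1112 CPM beside 685 to 752 CPM in the other 3 libraries. Gfra3 in P25 KO was flagged for replicate 3, at 69.0 CPM beside 65.4 to 65.7 CPM. Nrtn in P25 WT was flagged for replicate 4, at 1.20 CPM, or 31 counts, beside 0.646 to 0.684 CPM.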

How the results depend on the processing

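Ret, Gfra3, Gfra4 and Nrtn in both genotypes, and Gdnf in KO, kept their stage direction and stayed past the threshold under all 25 alternatives run for each. The number of members called was 5 in KO throughout and 4 to 6 in WT. In WT Gdnf passed the threshold with library totals alone (log2 fold change -1.06), with GC and length offsets (-1.05) and without E14 WT replicate 1 (-1.14) or P25 WT replicate 3 (-1.24), and Gfra1 with GC and length offsets (0.36, edgeR adjusted p = 0.0201). Replicate numbers did not pair the samples (correlations of deviations from -0.39 to 0.22), and with a replicate block 4 members were called in WT, 5 in KO and 0 in each genotype comparison and the interaction. Genotype calls numbered 0 of the members throughout, although DESeq2 gave no adjusted p for Gdnf and Nrtn at P25. Values near 0 changed sign. At P25 Gfra2 was 0.0296 with library totals alone and 0.0246 with GC and length offsets, and Gfra4 0.0030 with library totals alone. At E14 Gfra1 was 0.0013 with at least 1 CPM in at least 4 libraries, and 0.0762 with GC and length offsets; with same-numbered ganglia summed, Ret was 0.0014, Gfra1 0.0245 and Gfra2 0.0210. Leaving out each library in turn gave, at P25, -0.12 to 0.0083 for Gfra1, -0.13 to 0.0559 for Gfra2 and -0.11 to 0.12 for Gfra4. At E14 it gave -0.21 to 0.0249 for Ret, -0.0408 to 0.0698 for Gfra1, -0.22 to 0.0451 for Gfra2, -0.0419 to 0.38 for Gfra4 and -0.26 to 0.95 for Nrtn. The cause of these changes was not tested. Over all genes, KO against WT at P25 gave 7 calls, 18 with DESeq2, 11 with GC and length offsets or with summed ganglia, 3 with a replicate block or with compared libraries only, and 3 to 14 when a library was left out. At E14 it gave 3 calls, 5 with DESeq2 and 1 to 5 when a library was left out; the interaction gave 0, 8 with DESeq2 and up to 7 when a library was left out. The ratio tests could hardly pass after adjustment in 4 against 4 libraries, so their count of 0 says nothing of stability; stage ratios over 3 neuron markers differed from those over 11 by more than 1.5 times for Ret, Gfra1, Gfra2 and Gfra3. Levels per kilobase of the longest transcript changed the rank of Gfra1 against Gfra3 in P25 KO and of Ret against Gfra3 in E14 KO. Per kilobase of merged exons both pairs overlap in range. On the longest transcript Gfra1 ran from 37.3 to 41.8 CPM per kb in P25 KO, apart from Gfra3 at 32.8 to 34.6.

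Depth limits the ligands, which rest on 0 to 39 counts per library. Intervals assume that ganglia are independent, and same-numbered E14 ganglia may not be.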
